A study of Sus scrofa with 23 samples.

Results

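FOS, JUN, DUSP1 and MYC are immediate early genes, which cells transcribe within minutes of a stimulus from regulators that are already present, without new protein synthesis. They were chosen by platform symbol: every probe set (a group of short oligonucleotides that together read 1 transcript) whose symbol is exactly one of these names. Each gene has 1 such probe set, so the members are 4 of the 24123 probe sets on the array and 4 of the 6765 genes that the platform annotation names alone. The MYC probe set is of the type (s_at) whose probes match more than 1 transcript, and the other 3 are not. Probe sets differ in brightness, so levels are compared between samples and never between the 4 genes.

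Transcripts were measured with the Affymetrix Porcine Genome Array in joint surface cartilage of Duroc x Pietrain pigs, some affected by osteochondrosis, a failure of growing cartilage to turn into bone, and some not. The 23 arrays fall into affected femur (4), non-affected femur (5), affected humerus (8) and non-affected humerus (6), where femur is the medial condyle at the knee and humerus the medial part of the condyle at the elbow. Animals were sibs in affected and non-affected pairs, and age, sex and treatment are not given in the sources used here. A pair of close arrays in non-affected femur (1 and 2) and a pair in affected humerus (5 and 6) were averaged as 1 sample each, which left 4, 4, 7 and 6 samples. Nothing in the labels ties each array to an animal of its own, so the p-values measure the spread between these samples, which may be technical.

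FOS and JUN pair to form AP-1, a dimer of leucine zipper proteins that binds promoters of growth, matrix-degrading and stress genes. MAP kinases switch both genes on and phosphorylate both proteins. DUSP1 is a nuclear phosphatase that strips phosphate from p38, JNK and ERK and so closes the loop, and glucocorticoids induce it as well. MYC is a helix-loop-helix factor that works with MAX and raises ribosome production and growth. In cartilage AP-1 is known for driving collagenase and stromelysin genes, and in mice loss or gain of Fos alters growth plate and bone.

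The samples carried cartilage transcripts in every group. COMP, a cartilage matrix protein, averaged 13.87 in affected femur, 13.75 in non-affected femur, 13.62 in affected humerus and 13.77 in non-affected humerus, in log2 intensity, and ACAN, the aggrecan core protein, averaged 13.31, 13.25, 13.59 and 13.72 in the same order. The mean of 7 chondrocyte markers lay between 10.81 and 12.47 in single samples. Single markers were less even between the joints. In the tests by joint described below, SOX9 (1.15) and CILP (0.97) were called higher in the femur. HAPLN1 (-0.93) and ACAN (-0.37) were called lower, and 3 were not called. HAPLN1 averaged 11.91, 10.85, 12.28 and 12.38 in the same group order, and SOX9 10.04, 9.36, 8.41 and 8.71. Several technical measures separated the joints. The hybridisation controls, foreign transcripts added to each hybridisation mix, were brighter on the femoral arrays: their 27 probe sets averaged 11.73 ± 0.06 on femoral arrays (SD, n = 9, range 11.63 to 11.80) and 10.65 ± 0.09 on humeral arrays (SD, n = 14, range 10.47 to 10.79), and in 23 of the 27 every femoral array exceeded every humeral array. Array medians ran the other way and did not overlap either, between 6.04 and 6.165 in the femur and between 6.174 and 6.32 in the humerus. The share of probe sets at the floor of the table was 4.33% to 5.69% on femoral and 2.10% to 3.35% on humeral arrays, again without overlap. The joint and the array handling therefore cannot be told apart in any comparison of sites below, while affected and non-affected arrays of 1 joint had nearly the same control level (11.73 and 11.73 in the femur, 10.64 and 10.67 in the humerus).

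**Figure D1:**
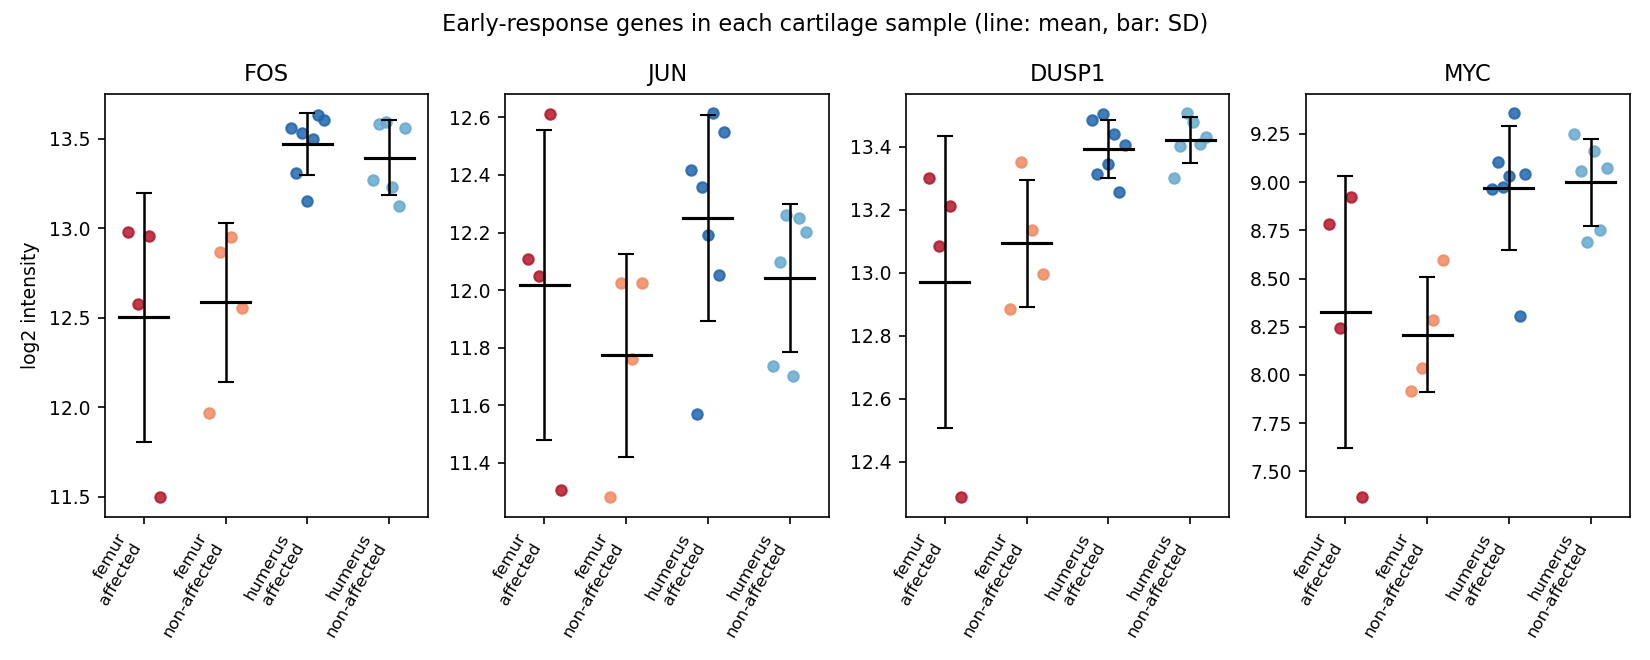
Log2 intensity of FOS, JUN, DUSP1 and MYC (vertical axis, a separate scale per gene) in each of the 21 samples, by joint and disease status; the long line is the group mean and the bar 1 SD. All 8 femoral samples of FOS lie below all 13 humeral samples, and femur affected 4 is the lowest point of its group in all 4 panels.

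FOS read 12.98, 12.58, 12.96 and 11.50 in the affected femoral samples 1 to 4, and 11.97, 12.87, 12.95 and 12.56 in the non-affected femoral samples 1, 3, 4 and 5. In the humerus it lay between 13.15 and 13.63 in affected samples (median 13.53) and between 13.13 and 13.59 in non-affected samples (median 13.41). Every femoral sample was thus below every humeral sample, while affected and non-affected samples overlapped within each joint. The share of all probe sets that separate the joints in this way is not given here. Femur affected 4 and femur non-affected 1 lay below all other samples.

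JUN, the partner of FOS, read 12.11, 12.05, 12.61 and 11.30 in affected femur and 11.28, 12.02, 11.76 and 12.02 in non-affected femur, in the same sample order. It ran from 11.57 to 12.62 in affected humerus (median 12.36) and from 11.70 to 12.26 in non-affected humerus (median 12.15). All 4 groups overlapped for JUN. Humerus affected 2, at 11.57, was its only humeral sample below 11.70.

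DUSP1, the phosphatase that acts on the kinases upstream of FOS and JUN, read 13.30, 13.09, 13.21 and 12.29 in affected femur and 12.89, 13.35, 13.14 and 12.997 in non-affected femur. It was close to constant in the humerus, between 13.26 and 13.50 in affected samples (median 13.40) and between 13.30 and 13.51 in non-affected samples (median 13.42). Most femoral samples (6 of 8) lay below every humeral sample, and femur affected 1 and femur non-affected 3 lay among them.

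MYC read 8.78, 8.24, 8.92 and 7.37 in affected femur and 7.92, 8.04, 8.29 and 8.60 in non-affected femur. It ran from 8.31 to 9.36 in affected humerus (median 9.03) and from 8.69 to 9.25 in non-affected humerus (median 9.07). The 4 non-affected femoral samples lay below every non-affected humeral sample, and in affected cartilage the joints overlapped through femur affected 1 and 3 and humerus affected 7.

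The question of the study was what distinguishes affected from non-affected cartilage. None of the 4 genes was called changed with disease status in either joint. The FOS mean was 12.50 ± 0.70 for affected femur and 12.59 ± 0.44 for non-affected femur (SD, n = 4 each), and 13.47 ± 0.17 in affected (n = 7) and 13.39 ± 0.21 in non-affected humerus (n = 6). That of JUN was 12.02 ± 0.54 for affected femur and 11.77 ± 0.35 for non-affected femur, and 12.25 ± 0.36 and 12.04 ± 0.26 in affected and non-affected humerus. DUSP1 had 12.97 ± 0.46 in affected femur, 13.09 ± 0.20 in non-affected femur, 13.39 ± 0.09 in affected humerus and 13.42 ± 0.07 in non-affected humerus. MYC had 8.33 ± 0.71 in affected femur, 8.21 ± 0.30 in non-affected femur, 8.97 ± 0.32 in affected humerus and 8.998 ± 0.23 in non-affected humerus. In all 4 genes the affected and non-affected samples of a joint overlapped.

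Differences between groups were tested with limma (linear models with moderated variances over all 16799 probe sets that passed a filter on dim values), and a gene was called changed at a Benjamini-Hochberg adjusted p under 0.05. All 4 genes passed that filter. Over both joints together, affected minus non-affected was 0.02 ± 0.16 (SE) for FOS (adjusted p = 0.990), 0.22 ± 0.15 for JUN (adjusted p = 0.766), -0.06 ± 0.10 for DUSP1 (adjusted p = 0.898) and 0.03 ± 0.16 for MYC (adjusted p = 0.979). Of all probe sets limma called 0.0% there (1223 reached p under 0.05 before adjustment), and the unadjusted p of the 4 genes were 0.155 or more. The largest of these differences, that of JUN, was in the same direction in both joints and was 0.22, a ratio of 1.17, with a 95% interval of -0.09 to 0.54.

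Within the femur the difference was -0.08 for FOS (95% interval -0.61 to 0.45), 0.25 for JUN (-0.28 to 0.77), -0.12 for DUSP1 (-0.46 to 0.21) and 0.12 for MYC (-0.43 to 0.67), with limma adjusted p of 0.880, 0.603, 0.701 and 0.831. limma called 1.14% of all probe sets in that comparison, none of them a probe set of the 4 genes. Within the humerus it was 0.08 for FOS (-0.34 to 0.49), 0.21 for JUN (-0.20 to 0.62), -0.03 for DUSP1 (-0.29 to 0.24) and -0.03 for MYC (-0.46 to 0.40), with adjusted p of 0.962, 0.863, 0.978 and 0.985, and limma called 0.0% of all probe sets (1100 reached p under 0.05 before adjustment). Two-sided exact permutation tests gave p between 0.343 and 0.914 in the femur, where the smallest possible p is 0.02857, and between 0.255 and 0.867 in the humerus, where it is 0.001166. The intervals leave room in the femur for a change in FOS of -0.61 to 0.45 and in MYC of -0.43 to 0.67, so equal levels are not shown.

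The effect of status was also compared between the joints. The femoral minus the humeral effect was -0.16 ± 0.32 (SE) for FOS, 0.04 ± 0.32 for JUN, -0.09 ± 0.21 for DUSP1 and 0.15 ± 0.34 for MYC, with limma adjusted p between 0.811 and 0.960. None was called, against 0.268% of all probe sets.

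**Figure D2:**
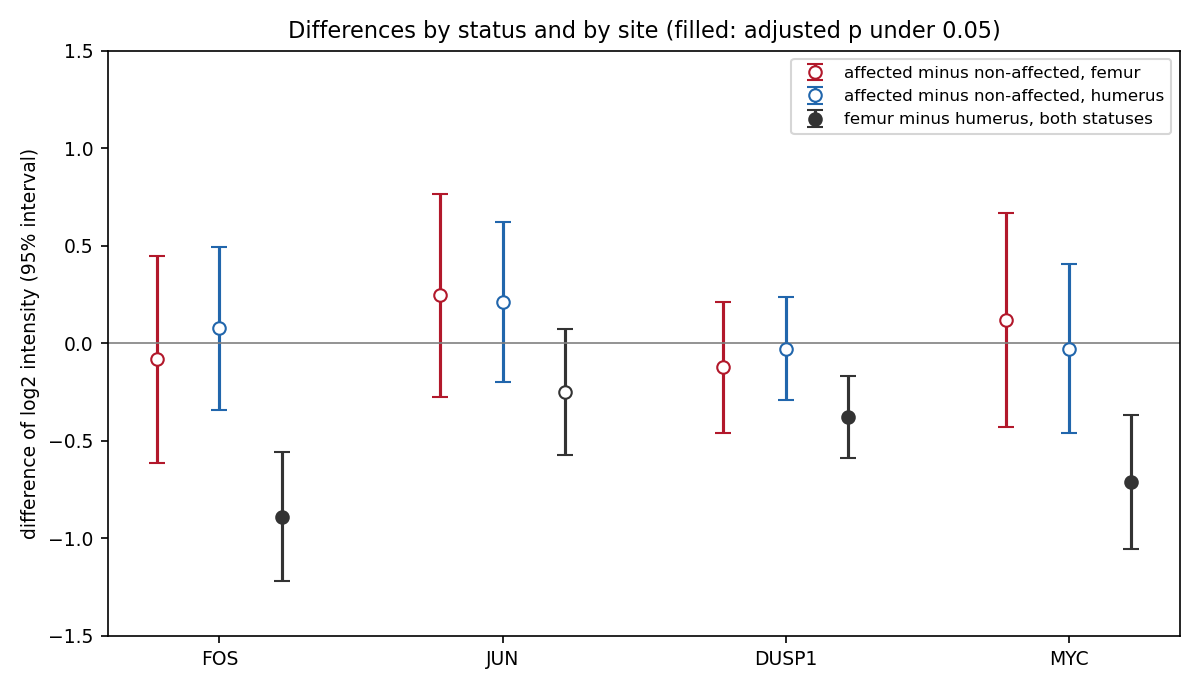
Difference of log2 intensity (vertical axis) for FOS, JUN, DUSP1 and MYC with its 95% interval, for disease status (affected minus non-affected) within each joint and for joint (femur minus humerus, statuses combined); filled points have a limma adjusted p under 0.05. All 8 status differences are open and their intervals cross 0, and the filled points are the site differences of FOS (-0.89), DUSP1 (-0.38) and MYC (-0.71).

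Between the joints, 3 of the 4 genes were lower in femoral than in humeral cartilage. FOS averaged 12.54 in the femur (n = 8) and 13.43 in the humerus (n = 13). This is a difference of -0.89 ± 0.16 (SE), or 0.54 times the humeral intensity (limma adjusted p = 1.44e-04), and it was lower in 8 of 8 femoral samples than in any humeral sample. MYC averaged 8.27 in the femur and 8.98 in the humerus, a difference of -0.71 ± 0.17, or 0.61 times (adjusted p = 0.00135), with 5 of 8 femoral samples below all humeral samples. How often tested probe sets separate the joints like this is not given here, so whether these counts are unusual cannot be judged. DUSP1 averaged 13.03 and 13.41, a difference of -0.38 ± 0.10, or 0.77 times (adjusted p = 0.00418). JUN averaged 11.90 in the femur and 12.15 in the humerus, and its difference of -0.25 ± 0.16 did not pass (adjusted p = 0.186).

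These calls stand against a comparison in which limma called 51.8% of all tested probe sets, 17.6% higher and 34.2% lower in the femur, so a call by site is common on these arrays. The median difference of all tested probe sets was -0.12, and after quantile normalisation it was 0.03 and after median centring 0.05. The share of calls that were lower in the femur then fell to 45.0% and 43.4%, against 66.0% as deposited. The direction of all 4 genes stayed negative under both scalings. FOS kept its call (-0.60 with an adjusted p of 0.00636 and -0.72 with 0.000828), as did MYC (-0.57 with 0.008 and -0.54 with 0.00857), whereas DUSP1 lost it (-0.07 with an adjusted p of 0.618 and -0.21 with 0.0916). The actin 3′ minus 5′ signal, a measure of RNA length, moved with the joint as well, at 2.82 ± 0.18 (n = 4) in affected femur, 2.75 ± 0.18 (n = 5) in non-affected femur, 3.07 ± 0.35 (n = 8) in affected humerus and 3.31 ± 0.21 (n = 6) in non-affected humerus (log2, SD over arrays). That of GAPDH was 0.75 ± 0.08, 0.66 ± 0.03, 0.86 ± 0.15 and 0.77 ± 0.20 in the same group order, and their part in the levels of the 4 genes was not tested. The part of the array handling in these differences cannot be told apart from that of the joint, as the plot of FOS against the hybridisation controls shows.

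**Figure D3:**
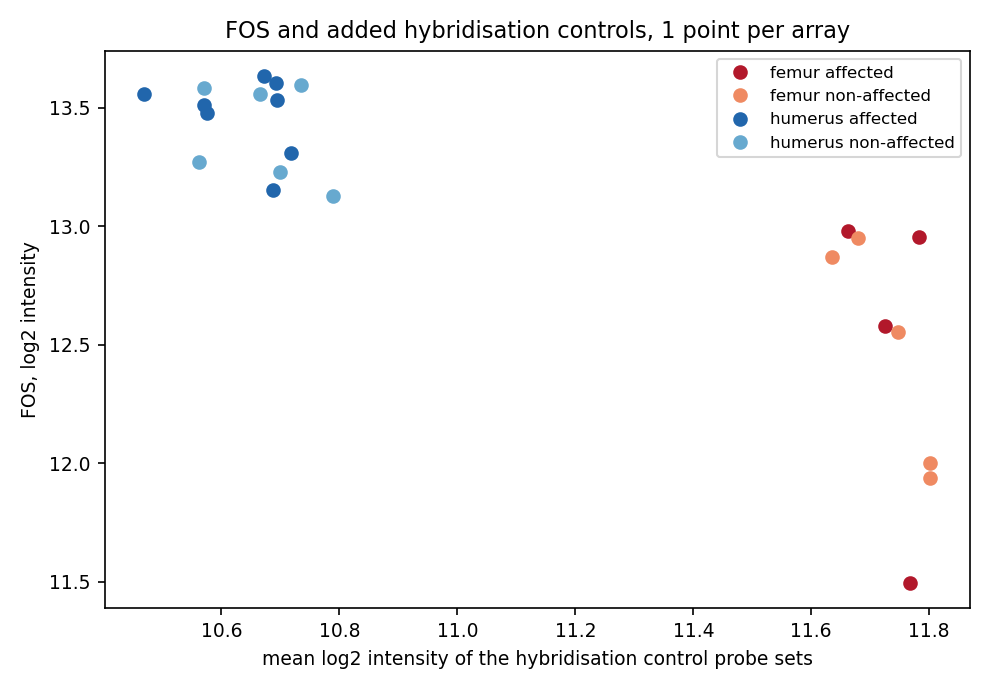
Log2 intensity of FOS (vertical axis) against the mean log2 intensity of the 27 hybridisation control probe sets (horizontal axis), 1 point for each of the 23 arrays, by group. Femoral arrays lie at control levels of 11.63 to 11.80 and humeral arrays at 10.47 to 10.79, with no array between them, and all femoral arrays are lower in FOS.

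Within each status the order of the joints was the same. In affected cartilage, femur minus humerus was -0.97 ± 0.23 (SE) for FOS (limma adjusted p = 0.00267), -0.64 ± 0.23 for MYC (adjusted p = 0.0365), -0.42 ± 0.14 for DUSP1 (adjusted p = 0.0254) and -0.23 ± 0.22 for JUN (adjusted p = 0.428). There limma called 38.5% of all probe sets, 13.9% higher and 24.6% lower. In non-affected cartilage it was -0.81 ± 0.23 for FOS (adjusted p = 0.0115), -0.79 ± 0.24 for MYC (adjusted p = 0.0159), -0.33 ± 0.15 for DUSP1 (adjusted p = 0.0860) and -0.27 ± 0.23 for JUN (adjusted p = 0.373), against 36.6% of all probe sets called, 11.6% higher and 25.0% lower. The order of the 4 groups for FOS was affected femur, non-affected femur, non-affected humerus and affected humerus, and of its 3 steps limma called that between non-affected femur and non-affected humerus, whose samples did not overlap. For MYC, ordered non-affected femur, affected femur, affected humerus and non-affected humerus, limma called the middle step, but its samples overlapped and the step of 0.64 was below the SD of affected femur (0.71). For JUN no step was called within a joint or within a status. For DUSP1 the middle step, between non-affected femur and affected humerus, crosses both joint and status and was not tested.

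Part of these within-status calls ended under the other scalings. In affected cartilage MYC had an adjusted p of 0.101 after quantile normalisation and 0.105 after median centring, and DUSP1 differed by -0.12 (limma adjusted p = 0.556) and -0.26 (adjusted p = 0.152). In non-affected cartilage FOS lost its call after quantile normalisation (adjusted p = 0.102) and MYC after median centring (adjusted p = 0.0501). Single samples carried part of these calls too. Without femur affected 4, the DUSP1 difference in affected cartilage was -0.19 (limma adjusted p = 0.157), that of MYC -0.32 (adjusted p = 0.227) and that of FOS -0.63 with its call kept. The MYC call in affected cartilage was also lost without femur affected 2 (adjusted p = 0.0803) or without humerus affected 2, 3, 4, 5 or 8 (adjusted p between 0.0504 and 0.0692). In non-affected cartilage FOS lost its call without femur non-affected 1 (-0.60, adjusted p = 0.0550) and MYC without femur non-affected 1 (-0.69, adjusted p = 0.0512) or 3 (-0.73, adjusted p = 0.0513). Over both statuses the calls of FOS, DUSP1 and MYC held without any 1 sample.

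Transcripts of other cells also differed between the joints. All 6 endothelial markers tested were lower in the femur, with list means of 4.75 to 6.90 in affected femur, 4.78 to 7.26 in non-affected femur, 7.52 to 9.08 in affected humerus and 5.87 to 8.54 in non-affected humerus. Of 8 macrophage markers 6 were lower and 1 higher, with list means of 4.84 to 6.43 in affected femur, 6.19 to 7.94 in non-affected femur, 7.002 to 9.20 in affected humerus and 5.61 to 8.67 in non-affected humerus. All 7 neutrophil markers were lower in the femur, as were 3 of 5 bone and 4 of 5 osteoclast markers (1 of each higher). Of all tested probe sets 34.2% were called lower and 17.6% higher. In affected cartilage 6 endothelial, 7 macrophage, 6 neutrophil, 3 bone and 4 osteoclast markers were called lower (24.6% of all). In non-affected cartilage the counts were 2, 0, 0, 2 and 1 in that order (25.0% of all). In each status 1 macrophage and 1 osteoclast marker were higher. None of these lists had a gene at the floor in all samples of a group. Skeletal muscle markers ran the other way, with 4 of 5 higher in the femur. In bulk tissue, fewer cells of a type and less RNA per cell cannot be told apart, and the part of these cells in the levels of FOS, DUSP1 and MYC was not tested.

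The SD within groups was 0.58 in the femur and 0.19 in the humerus for FOS, 0.36 and 0.08 for DUSP1, 0.54 and 0.28 for MYC, and 0.46 and 0.32 for JUN. The ratio of femoral to humeral SD was 3.06 for FOS, 4.28 for DUSP1, 1.93 for MYC and 1.44 for JUN, against a median of 1.099 over all tested probe sets. FOS reached 13.63 in the humerus, and the highest mean of any tested probe set was 14.18. Among the 142 tested probe sets with a mean of 13 or more, the median ratio was 1.61. Without femur affected 4, an alternative chosen after its values were seen, the femoral SD was 0.37 for FOS, 0.17 for DUSP1, 0.32 for MYC and 0.34 for JUN. The ratios were then 1.96, 2.03, 1.15 and 1.06, against a median of 1.07 over all tested probe sets without that sample. The difference in spread was not tested.

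Femur affected 4 was the lowest sample of its group in all 4 genes, at -1.01 from the group mean for FOS, -0.71 for JUN, -0.68 for DUSP1 and -0.96 for MYC. Femur non-affected 1 lay below its group mean in all 4 as well. The hybridisation controls of femur affected 4 (11.77) lay within those of the other 3 affected femoral arrays (11.66 to 11.78), but its array median lay below theirs (6.07 against 6.11 to 6.17). Its GAPDH 3′ minus 5′ signal was 0.67 against 0.72 to 0.85. Its endothelial list mean was 6.90 against 4.75 to 5.14 and its macrophage list mean 6.43 against 4.84 to 6.04, and its fibrous and synovial list mean 10.24 against 8.95 to 9.77. Its chondrocyte list mean was 11.99 against 12.05 to 12.47. Some list means lay within the range of the other 3, such as neutrophil (4.65 against 4.16 to 7.05) and bone markers (6.12 against 5.34 to 8.67). The same held for erythroid, lymphocyte, adipocyte and muscle markers. It also held for glucocorticoid response genes, MYC partners and dual-specificity phosphatases. The mean of 14 other immediate early transcription factors was low in it too, at 9.96 against 10.72 to 11.04. Also below the other 3 were early-response mRNA decay genes (9.15 against 9.48 to 9.96) and heat shock genes (10.05 against 10.17 to 10.38). MYC targets (9.46 against 9.51 to 9.84) and the AP-1 family (8.154 against 8.161 to 8.97) were narrowly below. Osteoclast markers (7.20 against 6.18 to 6.93) lay above, as did, narrowly, MAP kinases (7.38 against 7.21 to 7.37) and AP-1 targets (8.21 against 7.54 to 8.19). The part of these measures in its low values was not tested.

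**Figure D4:**
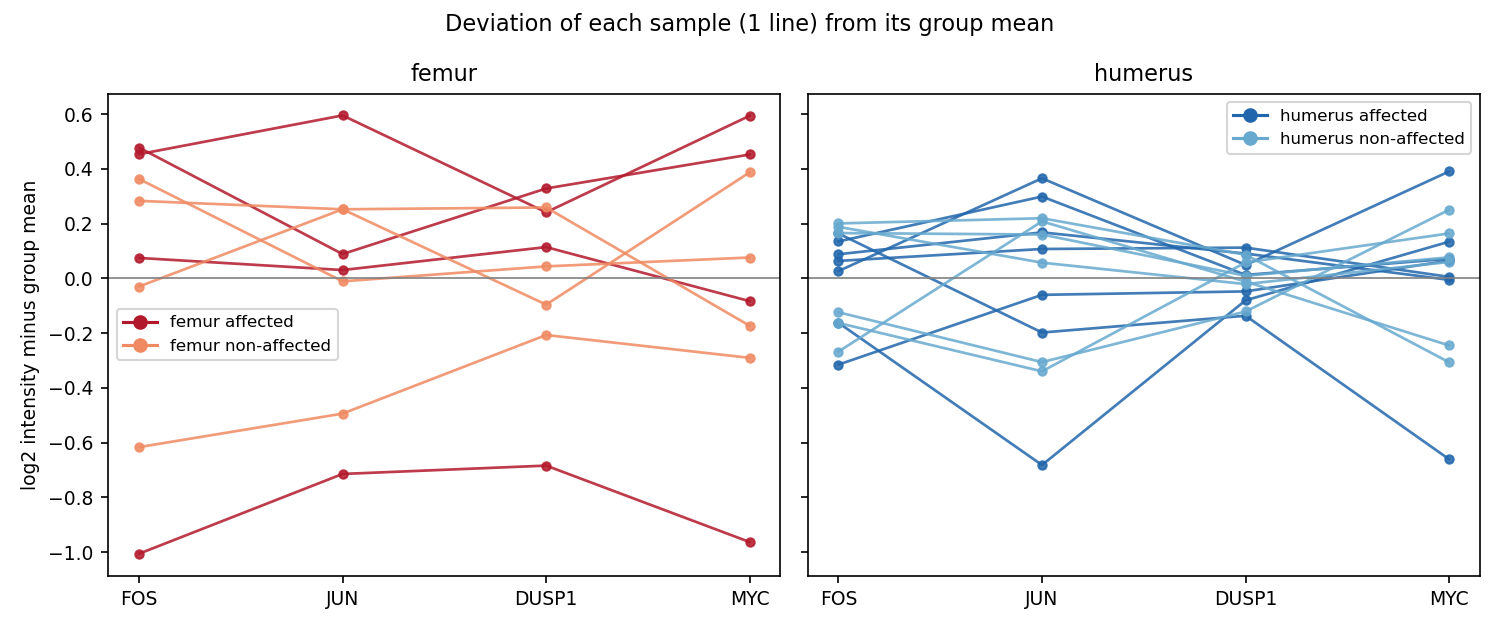
Log2 intensity minus the group mean (vertical axis) for FOS, JUN, DUSP1 and MYC, 1 line per sample, with the 8 femoral samples on the left and the 13 humeral samples on the right. Femur affected 4 and femur non-affected 1 lie below 0 in all 4 genes, and the humeral lines cross one another.

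Across the 8 femoral samples the 4 genes ran together. FOS and DUSP1 had a Pearson r of 0.94 (exact permutation p = 0.00102, adjusted p = 0.0122 over the 12 pairs of both joints; Spearman rho = 0.86, exact p = 0.0107, adjusted p = 0.0643). JUN and MYC had r = 0.85 (exact p = 0.00841, adjusted p = 0.0350; rho = 0.86, exact p = 0.0107), FOS and MYC r = 0.82 (exact p = 0.00875, adjusted p = 0.0350; rho = 0.81, exact p = 0.0218) and FOS and JUN r = 0.81 (exact p = 0.0161, adjusted p = 0.0484; rho = 0.74, exact p = 0.0458). DUSP1 with MYC (r = 0.75, exact p = 0.0320, adjusted p = 0.0768) and JUN with DUSP1 (r = 0.72, exact p = 0.0434, adjusted p = 0.0867) did not pass, and no rho passed adjustment.

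This relation rests on few samples. Without the 2 samples farthest from the median of the first gene, r was 0.75 for FOS and DUSP1, 0.69 for JUN and MYC, 0.26 for FOS and MYC and 0.20 for FOS and JUN, and none passed (exact permutation p between 0.0778 and 0.753 over the 6 femoral pairs). Without femur affected 4 the 6 values of r ran from 0.33 to 0.86 and 0 of 6 passed adjustment, and 0 of 6 passed without femur non-affected 1 or 5. Without femur affected 1, 2 or 3, 1 pair passed. With the mean of each status taken off, all 6 femoral pairs passed by r, but no rho passed (lowest adjusted permutation p = 0.0869). Without the 2 farthest samples these r ran from 0.07 to 0.77, with an exact permutation p of 0.0792 or more. Across the 13 humeral samples r ran from -0.28 for FOS and MYC to 0.47 for FOS and JUN, and no pair passed (permutation p between 0.104 and 0.867). Without 2 samples, FOS and JUN had r = 0.75 (permutation p = 0.00871, not adjusted), and without humerus non-affected 4, 1 humeral pair passed adjustment. Femoral and humeral relations were not tested against each other.

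The genes most like each member were taken over all 21 samples after the 4 group means were removed, by Pearson r among tested probe sets with 1 symbol. They were chosen for this r, which is a description. ZFP36, which encodes tristetraprolin, an early-response protein that speeds the decay of AU-rich mRNAs, came first for both AP-1 genes, with r = 0.82 for FOS and r = 0.85 for JUN. BTG2, an antiproliferative early-response gene, followed with r = 0.79 for FOS and 0.76 for JUN. For JUN and ZFP36, r was 0.89 within the femur, 0.81 within the humerus and 0.78 without femur affected 4, so that likeness was present in both joints. For FOS and ZFP36 it was 0.96 in the femur and 0.43 in the humerus, and for FOS and BTG2 0.98 and 0.41. Without femur affected 4 the r over both joints was 0.66 for FOS and ZFP36 and 0.63 for FOS and BTG2.

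IGSF8 (r = 0.80), SLC27A6 (0.78), a fatty acid transporter, and AURKA (0.78), a mitotic kinase, completed the list for FOS, and PLAC1 (0.75), CD8B (0.73) and GMIP (0.72) that for JUN. DUSP1 was most like SLC27A6 (r = 0.88), KRT8 (0.87), AURKA (0.83), CD8B (0.81) and EGR1 (0.80), an early-response zinc finger factor. Without femur affected 4 the r with DUSP1 was 0.33 for EGR1, 0.32 for CD8B and 0.48 for AURKA, and that of AURKA with FOS was 0.46. KRT8, an intermediate filament keratin, kept its likeness to DUSP1 in both joints (0.89 in the femur and 0.88 in the humerus), while AURKA did not (0.96 in the femur and -0.06 in the humerus). MYC was most like ROCK1 (r = 0.85), a kinase of the cytoskeleton, CD8B (0.84), LOC396684 (0.80), IGF1R (0.78), the receptor of insulin-like growth factor, and IL17B (0.78), with r = 0.83 in the femur and 0.89 in the humerus for ROCK1. Among the members FOS and DUSP1 had r = 0.86, and no probe set among 8067 with 1 symbol was more like FOS. Without femur affected 4 that r was 0.64, and r of FOS with MYC was 0.11, against 0.57 with it.

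The other genes of the pathway were read from 10 lists, 1 probe set per gene, 95 list entries in all. A gene on more than 1 list, as SGK1 is, counts in each. By joint over both statuses 35 of the 95 were called, or 36.8%, against 51.8% of all tested probe sets (17.6% higher and 34.2% lower in the femur). Of the AP-1 family, 3 other members were tested. FOSL1, a FOS relative that lacks its activation domain, was higher in the femur by 0.46 (limma adjusted p = 0.00739), or by 0.44 and not called (adjusted p = 0.0845) with its probe sets averaged. ATF3, a stress-induced partner of JUN, was lower (-1.13, adjusted p = 0.0148), with 7.93, 9.42, 9.63 and 7.31 in affected femur, 7.01, 7.67, 8.08 and 9.06 in non-affected femur, 8.87 to 10.78 in affected humerus and 7.75 to 10.72 in non-affected humerus. The joints overlapped. FOSL2 differed by 0.17 and was not called. The median of the 3 was 0.17, against -0.12 over all tested probe sets, and none of them was called by status.

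Of 14 other immediate early transcription factors, 1 was higher and 1 lower in the femur, and 12 did not pass. BHLHE40, a repressor that responds to hypoxia and the clock, was higher by 0.83 (limma adjusted p = 0.0179). ID3, an inhibitor of helix-loop-helix factors, had a difference of -0.32 (adjusted p = 0.0130), a call lost under both other scalings (adjusted p = 0.0860 and 0.227). The median of the 14 was 0.06, against -0.12 over all tested probe sets, of which 17.6% were called higher and 34.2% lower. After quantile normalisation the median of the 14 was 0.30 (0.03 over all) and after median centring 0.23 (0.05 over all). Calls were then 3 and 2 higher and 0 lower. Of all 16799 probe sets 8639 were called with quantile normalisation (3891 lower) and 8670 with centring (3761 lower). EGR1 at its brightest probe set, which is not the one most like DUSP1, differed by -0.10 (adjusted p = 0.728) and IER2 by -0.21 (adjusted p = 0.509).

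Among 15 early-response genes of mRNA decay, survival and secretion, ZFP36 was lower in the femur (-0.77, limma adjusted p = 0.0125). It read 11.48, 11.18, 11.76 and 9.60 in affected femur and 10.12, 11.04, 11.62 and 11.27 in non-affected femur, against 11.48 to 12.26 in affected and 10.84 to 12.05 in non-affected humerus. The joints overlapped, and the other 14 did not pass, while 51.8% of all tested probe sets were called by joint. Under either other scaling 2 were higher and 1 lower. Of all 16799 probe sets 8639 were called with quantile normalisation (3891 lower) and 8670 with centring (3761 lower). GADD45A, a growth arrest gene induced by DNA damage and stress, was the only gene of the 10 lists called by status, 1 of 95 or 1.05%, which is near the 1.14% of all probe sets called in the femur. It read 7.72, 6.77, 6.96 and 6.76 in affected femur and 8.58, 9.06, 8.49 and 8.60 in non-affected femur, with no overlap. The share of all tested probe sets that separate the femoral groups in this way is not given here. The difference was -1.63 ± 0.37 (SE, limma adjusted p = 0.0350), 0.32 times the non-affected intensity, and it differed between the joints (femoral minus humeral effect -2.41, adjusted p = 0.0330), since the humeral difference was 0.78 (adjusted p = 0.697). Both calls were sensitive to single samples: without femur affected 2 or 3 or femur non-affected 3 or 4, the femoral adjusted p was 0.102, 0.104, 0.107 and 0.0600. The difference between joints lost its call without any of 8 samples (femur non-affected 1 and 3, femur affected 2 and 3, humerus affected 2 and 4, humerus non-affected 4 and 6), with adjusted p between 0.0538 and 0.0815. By exact permutation over the femoral samples its p was 0.0286, the smallest that 4 against 4 allows, and 0.354 after adjustment. With array weights its adjusted p was 0.128, and 0.0783 with only femoral samples in the fit.

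DUSP6, the phosphatase that acts on ERK and is itself an ERK response gene, differed most between the joints among the 6 other dual-specificity phosphatases. It read 5.78, 4, 4 and 5.57 in affected femur and 5.34, 5.66, 7.46 and 5.95 in non-affected femur, against 8.16 to 10.25 in affected and 5.17 to 10.56 in non-affected humerus. The difference was -3.27 ± 0.55 (SE, limma adjusted p = 7.48e-05), and femur affected 2 and 3 lay at the floor of the table, so the value is not exact. In affected cartilage the joints did not overlap, and humerus non-affected 1 and 5 lay within the femoral range. The share of all tested probe sets without such overlap is not given here. DUSP9 was higher in the femur by 0.59 (adjusted p = 2.21e-04), and 4 did not pass. Under either other scaling 3 were higher and 1 lower. By joint 17.6% of all tested probe sets were called higher and 34.2% lower as deposited. With quantile normalisation 8639 of all 16799 were called (3891 lower), and with centring 8670 (3761 lower). Of 8 MAP kinases and serum response regulators, MAPK8, which encodes JNK, was higher by 0.52 (adjusted p = 1.23e-04) and 3 were lower, among them MAP2K4, a kinase of JNK, at -0.53 (adjusted p = 4.82e-04). By status all 8 had negative differences in the femur, with list means of 7.21 to 7.38 in affected and 7.53 to 7.60 in non-affected samples, but none was called (median -0.18, against 0.01 over all tested probe sets).

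Among 17 MYC target genes 9 were lower and 1 was higher in the femur, with a median of -0.37 against -0.12 over all. Of all tested probe sets 34.2% were called lower and 17.6% higher. HSPE1, a mitochondrial chaperone, had a difference of -0.48 (limma adjusted p = 7.35e-05) and APEX1, a DNA repair endonuclease, of -0.40 (adjusted p = 6.84e-04). Under quantile normalisation or median centring 5 were lower and 2 higher. Among all 16799 tested probe sets 8639 were called with quantile normalisation, 3891 of them lower. With median centring 8670 were called, 3761 of them lower. HSPE1 then differed by -0.31 with centring and APEX1 by -0.23, both still called. Of 5 MYC partners and antagonists, FBXW7, which marks MYC for degradation, was lower (-0.88, adjusted p = 2.11e-05, or -0.54 with its probe sets averaged), and 1 was higher. MYCBP2 was lower as well (-0.29, adjusted p = 0.0247), but not under either scaling (adjusted p = 0.204 and 0.319), with its probe sets averaged (adjusted p = 0.312), or without femur affected 1 (adjusted p = 0.0511) or femur non-affected 3 (adjusted p = 0.0637).

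Of 11 AP-1 target genes 7 were lower in the femur and none higher, against 34.2% lower and 17.6% higher of all tested probe sets. Their median was -0.87 against -0.12 over all. Under either other scaling 5 were lower, against 3891 of all 16799 probe sets with quantile normalisation and 3761 with median centring. The collagenase MMP13 had a difference of -1.43 (limma adjusted p = 3.90e-05), with 1 sample at the floor, or -0.65 with the probe sets of the gene averaged, and heme oxygenase HMOX1 of -2.12 (adjusted p = 0.00149). MMP9 of this list is made by osteoclasts and neutrophils, and HMOX1 by macrophages. Most markers of these cells were lower in the femur as well. MMP9 is itself 1 of the 5 osteoclast markers tested, so the lists are not separate observations. The part of these cells was not tested. By status none of the 11 was called. MMP3, stromelysin, differed by -3.10 in the femur (adjusted p = 0.0534) and by 1.21 in the humerus (adjusted p = 0.767).

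The remaining lists cover other inducers of these genes. By site 51.8% of all tested probe sets were called as deposited, 17.6% higher and 34.2% lower in the femur. Under quantile normalisation 8639 of all 16799 were called, 3891 of them lower. Under median centring 8670 were called, 3761 of them lower. Of 10 heat shock genes 1 was called by site, HSF1, their transcription factor, which was higher in the femur by 0.38 (limma adjusted p = 6.59e-04); under median centring 3 were higher. Of 6 glucocorticoid response genes 3 were lower, FKBP5 at -1.32 (adjusted p = 1.63e-04), KLF9 at -0.68 (adjusted p = 0.0214) and TSC22D3, and under the other scalings 1 was lower and 1 higher. KLF9 lost its call under both (adjusted p = 0.0573 and 0.0718), with its probe sets averaged (adjusted p = 0.206) and without femur non-affected 3 (adjusted p = 0.0569). By status no heat shock or glucocorticoid response gene was called in either joint, and HSPB1, a small heat shock protein, differed by -0.86 in the humerus (adjusted p = 0.641).

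By status, the named genes of the lists other than GADD45A did not pass. In the humerus the smallest p among other immediate early factors were those of ATF4 (-0.37, limma adjusted p = 0.688) and IER5 (-0.52, adjusted p = 0.759), with 12 of the 14 differences negative and a median of -0.23 against -0.01 over all. Among the phosphatases DUSP6 differed by 0.97 (adjusted p = 0.789) and DUSP14 by -0.38 (adjusted p = 0.759), and MAP2K4 differed by -0.41 (adjusted p = 0.641). AP-1 targets had a median of 0.41 there, with 10 of 11 differences positive, and -0.50 in the femur, with 8 of 11 negative. Macrophage markers, none of them called, had medians of 0.83 in the humerus (8 of 8 positive) and -1.94 in the femur (7 of 8 negative), and endothelial markers of 0.96 (6 of 6 positive) and -0.86 (5 of 6 negative). Their part in the AP-1 target values was not tested. In the femur IER2 differed by -0.95 (adjusted p = 0.151), SOCS3 by -0.36 (adjusted p = 0.160), MAPK14, which encodes p38, by -0.45 (adjusted p = 0.104), NOP58, a ribosome assembly factor, by 1.04 (adjusted p = 0.181), PLAU, the urokinase protease, by -1.89 (adjusted p = 0.147) and HSPA4, a chaperone, by 1.0005 (adjusted p = 0.0878).

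**Figure D5:**
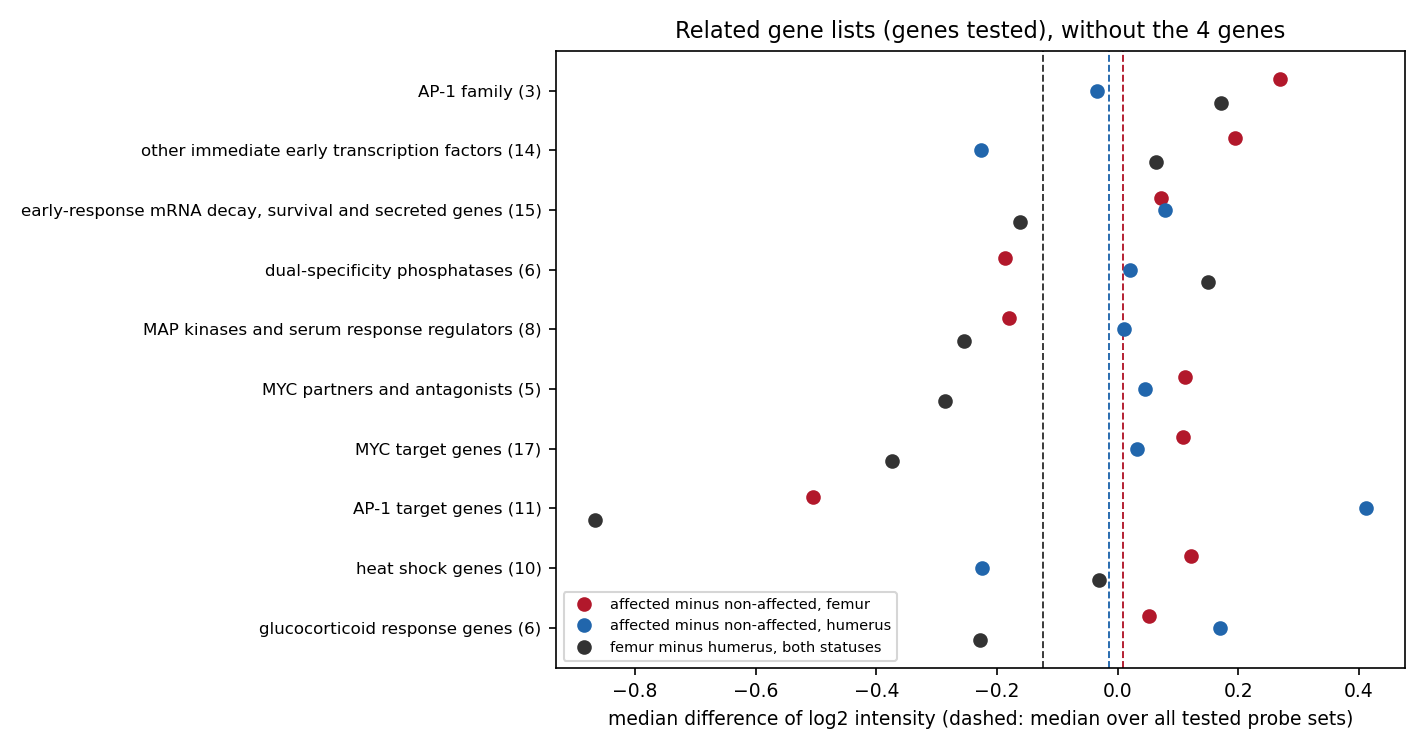
Median difference of log2 intensity (horizontal axis) for 10 related gene lists without FOS, JUN, DUSP1 and MYC, with the number of genes tested in brackets; red and blue points are affected minus non-affected in the femur and humerus, black points femur minus humerus, and dashed lines the medians of all tested probe sets. The black point lies lowest for AP-1 target genes (-0.87) and MYC target genes (-0.37), and above 0 for the AP-1 family (0.17).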

How the data were processed

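The authors deposited 1 table of log2 intensities per probe set and array, read here as deposited; per the submitters' processing notes images were analysed with GCOS 1.1.1, and the sources used here do not name a normalisation. Arrays of a group whose log2 values differed by an SD under 0.25 over all probe sets were averaged as 1 sample. After 124 control probe sets were left out, those with a mean under the 30th percentile (5.30) were removed, which left 16799 of 23999. limma 3.58.1 in R 4.3.3 (lmFit, eBayes) fitted the 4 group means, or site and status together, and p-values were adjusted by Benjamini and Hochberg over all tested probe sets. The limma step was tested on simulated data with planted changes. Each difference is on the log2 scale, by status or by joint. Gene names come from the platform annotation, which gives 1 symbol for 10099 probe sets, several for 198 and none for 13826.

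Correlations and single-gene tests used exact permutation for the femur and 100000 resamples for correlations in the humerus (scipy 1.17.1, numpy 2.4.6, Python 3.11.15). Plots were drawn with matplotlib 3.10.9. The rule for named genes takes the 4 members, the 2 genes of smallest p per list in each of 3 comparisons (part of which are given) and the 5 most alike genes per member. EGR1 and IER2 by joint, TSC22D3, COMP, ACAN, SOX9, CILP, HAPLN1 and MMP9 by joint were named after their values were seen. The members and lists were chosen with earlier results of these data known. Alternatives covered the filter, scaling, close arrays, variance trend, weights per array, averaging a gene's probe sets, fitting 1 joint alone, exact permutation and leaving out each sample. The number of arrays limits the precision.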

Additional observations from a re-analysis of the deposited data

Results flagged for a closer look

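MYC in humerus affected 7 read 8.31, below the other 6 affected humeral samples, the next of which read 8.96. Its gap to the next sample was 0.62 of the range of the group, above Dixon's critical value of 0.57 for 7 samples. It was the only extreme sample among 16 combinations of gene and group, and chance marks about 1 group in 20. Without it the MYC status difference in the humerus was 0.08 (limma adjusted p = 0.925), against -0.03 with it.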

How the results depend on the processing

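Of 7 comparisons of the 4 genes, the counts of calls by status (0 of 4 over both joints, in the femur, in the humerus and between the effects) stayed at 0 under every alternative, and the count by site over both statuses was 3, or 2 under either other scaling, where DUSP1 lost its call. The count by site in non-affected cartilage was 2 and became 1 under quantile normalisation (FOS lost) and under median centring (MYC lost), 3 with every array as its own sample and with array weights (DUSP1 gained, adjusted p = 0.0312 and 0.049), and 0 to 3 with 1 sample left out. The count in affected cartilage was 3 and became 1 under both scalings (DUSP1 and MYC lost), and 1 to 3 with 1 sample left out. The number of related pairs was 4 of 12, 6 with status means taken off and 0 to 5 with 1 sample left out, the last chosen after the data were seen. No paired analysis was possible because the labels do not say which animals were sibs.

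Signs turned only for differences that were not called. FOS by status over both joints was -0.0064 with median centring, MYC -0.0346 with array weights; MYC in the humerus was 0.0197 and FOS in the femur 0.0405 with every array as its own sample, and the JUN difference of effects was -0.0584 with array weights. With 1 sample left out, status over both joints ran from -0.0501 to 0.14 for FOS, -0.10 to 0.0177 for DUSP1 and -0.0467 to 0.13 for MYC, and MYC in the humerus from -0.0943 to 0.081. In the femur FOS ran from -0.29 to 0.25, DUSP1 from -0.23 to 0.11 and MYC from -0.0796 to 0.44. The difference of effects ran from -0.36 to 0.18 for FOS, -0.16 to 0.27 for JUN, -0.20 to 0.13 for DUSP1 and -0.0505 to 0.47 for MYC, and JUN by site in affected cartilage from -0.43 to 0.0055. The cause of these turns was not tested.

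The number of samples, 4 per femoral group, limits what can be seen. Whether the brightness of FOS and DUSP1, near the top of the scale, limits it as well was not tested. The femoral count over all probe sets, 192, ran from 52 to 450 with 1 sample left out. It was 621 with every array as its own sample, 59 with array weights, 4 with only femoral samples in the fit and 0 by exact permutation (smallest possible p 0.02857).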
